A study of Drosophila melanogaster with 75 samples.

Results

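The opsin and chromophore genes of the Drosophila eye examined here are ninaE, Rh2, Rh3, Rh4, Rh5, Rh6, ninaA, ninaB, ninaD and ninaG. They were chosen by name, as the opsins, an opsin chaperone and the genes that supply the light-absorbing chromophore, and all probe sets carrying one of these symbols in the platform annotation were taken. The annotation gave 3 probe sets of 18769, 1 each for ninaB (1625743_at), ninaD (1632705_at) and ninaG (1635148_at). Thus 3 of the 10 genes had a named probe set, among 11982 genes with a probe set of their own symbol. The 6 opsins and ninaA were not analysed here, since no probe set could be tied to them by symbol or gene ID, and the results below therefore describe the chromophore genes.

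RNA came from heads of 5-day-old virgin males of an isogenized Canton-S strain, in pools of 20 males, with 1 Affymetrix array for each of 15 pools. Each of 3 arms had 5 arrays. In the courtship arm, a male was watched for 20 min together with a cauterized female that had not mated. Arrays of the second arm are titled male, but their treatment label repeats the wording of the courtship arm, so the labels do not settle what these males met; this group is called the male arm. Control males were mock-exposed and had no female. All flies shared strain, sex, age and tissue, and a head pool holds eye, brain, fat body and other tissue at once. In such bulk samples, fewer cells of a type and less RNA per cell cannot be told apart. Nothing in the labels places the pools in separate cultures, so p-values measure the spread between pools.

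Visual pigment in the fly is an opsin protein bound to a hydroxylated retinal made from dietary carotenoids. The scavenger receptor encoded by ninaD takes carotenoids into cells, the oxygenase encoded by ninaB cleaves and isomerizes them, and the oxidoreductase encoded by ninaG acts on the hydroxylated retinoid at a late step. Loss of any of these genes is known to deplete rhodopsin from photoreceptors.

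Marker genes were checked against the labelled tissue. All 8 photoreceptor markers with a named probe set were above the detection filter, a mean log2 intensity of 4 over the 15 arrays, which 8926 of the 18769 probe sets passed. All 11 markers of testis and accessory gland lay under it. Pairwise correlations of the arrays ranged from 0.939 to 0.996. Male arrays 1 and 5 stood apart on the first principal component, at 46.2 and 38.3 against -24.4 to 7.29 for the other 13 arrays, and had 3′/5′ control log2 ratios, a measure of RNA quality, of 3.99 and 3.26. Control array 1 was also high in this ratio, at 3.54, while the other 12 arrays lay between 2.50 and 2.90.

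The uptake receptor gene ninaD was the chromophore gene that varied most. Its log2 intensity in the male arm was 8.98, 9.23, 9.01, 9.22 and 9.11, with a mean of 9.11 ± 0.11 (SD, n = 5). In the courtship arm it was 8.80, 8.31, 8.59, 9.14 and 9.04, with a mean of 8.78 ± 0.33 (SD, n = 5). In control males it was 8.23, 8.01, 8.81, 8.48 and 9.03, with a mean of 8.51 ± 0.42 (SD, n = 5). The male arm was uniformly high, whereas courtship and control arrays were spread over most of the range. Of the 5 male arrays, 3 exceeded every control array, and control array 5 overlapped the others. The male arm was 0.60 ± 0.19 log2 units (SE) above control, a 1.51-fold difference with a 95% interval of 1.15-fold to 1.99-fold. This gave an unadjusted p of 0.00586 in the limma fit, but an adjusted p of 0.0609, which missed the 0.05 threshold. The comparison of male with control called 327 of 8926 probe sets, or 3.66%, and 34.1% had an unadjusted p under 0.05. Of all tested probe sets, 9.58% had a smaller p than ninaD. The call was passed with array medians centred (0.65, limma adjusted p = 0.0448), with the 3′/5′ ratio as a covariate (0.64, adjusted p = 0.0432) and without courtship array 2 (adjusted p = 0.0422). These fits called 9.57%, 11.3% and 11.5% of all probe sets. With the replicate number as a block ninaD also passed (limma adjusted p = 0.0330), where 18.9% of all were called. Whether these numbers pair the arrays was not settled. Without the detection filter the call was missed (limma adjusted p = 0.145). Of 15 fits leaving out 1 array, 1 passed, with limma adjusted p of 0.0422 to 0.137.

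Against control, the courtship arm differed in ninaD by 0.26 ± 0.19 log2 units (SE), or 1.2-fold, with a 95% interval of -0.13 to 0.66 on the log2 scale (adjusted p = 0.999 in limma). The groups overlapped, with 2 courtship arrays above every control array. Against the male arm, ninaD differed by -0.34 ± 0.19 log2 units in the courtship arm, 1.26-fold lower, with an interval of -0.73 to 0.061 (adjusted p = 0.369 in limma). Here 3 courtship arrays lay below every male array. Courtship against control called 0% of all probe sets and courtship against male also 0%, while 2.86% and 15.2% had an unadjusted p under 0.05 in limma. All 3 comparisons share arrays in pairs, so they are not independent of each other.

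**Figure D1:**
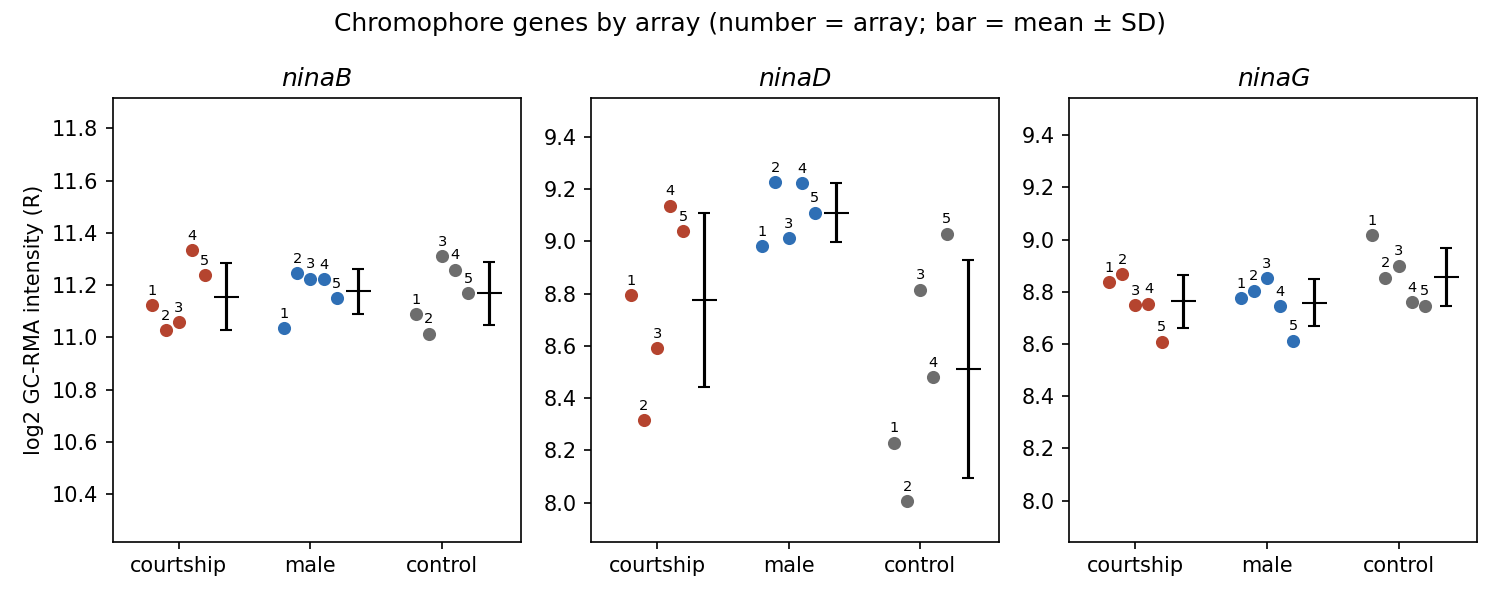
The plots show the log2 GC-RMA intensity of ninaB, ninaD and ninaG on each array (points, numbered by array) in the courtship, male and control arms, with mean ± SD beside them. The male arm of ninaD lies between 8.98 and 9.23, while its courtship and control arrays reach down to 8.31 and 8.01.

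For the oxygenase gene ninaB no difference between arms was detected, and the intervals left room for at most 0.19 log2 units. Its log2 intensity was 11.12, 11.03, 11.06, 11.33 and 11.24 in the courtship arm, a mean of 11.16 ± 0.13 (SD, n = 5). In the male arm the values were 11.03, 11.25, 11.22, 11.22 and 11.15, with a mean of 11.18 ± 0.09 (SD, n = 5). Control males gave 11.09, 11.01, 11.31, 11.26 and 11.17, with a mean of 11.17 ± 0.12 (SD, n = 5). All groups overlapped, and the 15 arrays spanned 1.25-fold. The differences were -0.012 (interval -0.18 to 0.15) for courtship against control, 0.0079 (-0.16 to 0.17) for male against control and -0.020 (-0.19 to 0.15) for courtship against male, with adjusted p of 0.999, 0.948 and 0.903 in limma.

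For the late-acting oxidoreductase gene ninaG no difference between arms was called either. Its log2 intensity was 8.84, 8.87, 8.75, 8.75 and 8.61 in the courtship arm, a mean of 8.76 ± 0.10 (SD, n = 5). In the male arm it was 8.78, 8.80, 8.85, 8.74 and 8.61, a mean of 8.76 ± 0.09 (SD, n = 5). In control males it was 9.02, 8.85, 8.90, 8.76 and 8.75, a mean of 8.86 ± 0.11 (SD, n = 5). The groups overlapped, with 1 courtship array and 2 male arrays below every control array. Against control, the courtship arm differed by -0.093 (interval -0.25 to 0.060) and the male arm by -0.098 (-0.25 to 0.055), with adjusted p of 0.999 and 0.336 in limma. Courtship and male arms differed by 0.0055 (-0.15 to 0.16, adjusted p = 0.971 in limma).

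The within-arm SD, which measures how far pools of one arm differ, was 0.32 for ninaD, 0.11 for ninaB and 0.10 for ninaG, where the median of all tested probe sets was 0.18. By this measure 84.4% of tested probe sets varied less than ninaD, 16.4% less than ninaB and 11% less than ninaG.

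The same arrays had been summarised by the authors in 4 other ways. For ninaD, male minus control was 0.55 by GeneSpring GC-RMA, 0.44 by MAS5, 0.36 by dChip PM and 0.38 by dChip PM-MM, with limma adjusted p of 0.0599, 0.0736, 0.0610 and 0.0775. The higher mean of the male arm thus held in each of these processings, and the call was missed in each. For ninaG, male minus control was -0.15 by dChip PM and -0.19 by dChip PM-MM (limma adjusted p = 0.0730 in both), larger than the -0.098 of R GC-RMA but also not called.

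**Figure D2:**
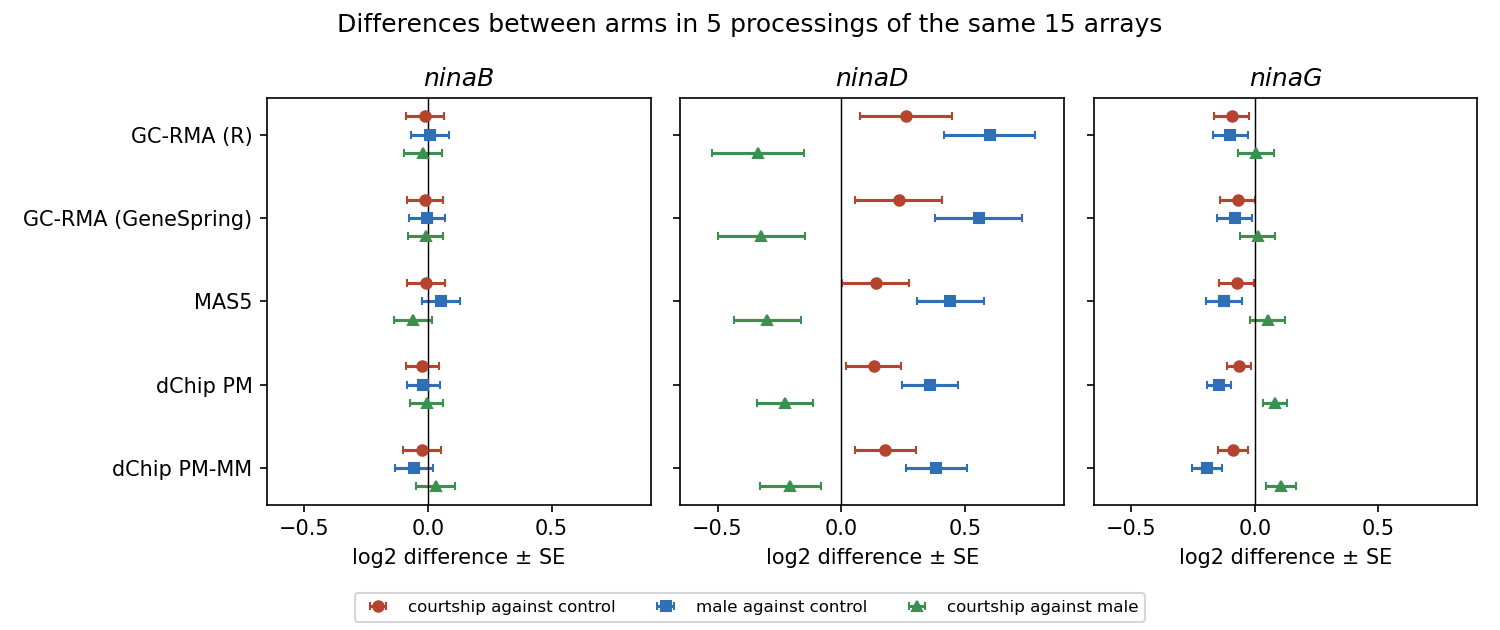
The plot shows the log2 difference ± SE between arms for ninaB, ninaD and ninaG under 5 processings of the same arrays. Differences of ninaD for male against control are positive in all 5, from 0.36 to 0.60, and those of ninaB lie near 0.

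Within arms, ninaB and ninaD varied together. After each arm's mean was subtracted, Pearson's r over the 15 arrays was 0.77 (p = 0.00546 by permutation within arms, 0.0164 after Benjamini-Hochberg adjustment over 3 pairs of genes) and Spearman's rho was 0.77 (permutation p = 0.00687). Without the 2 arrays farthest from the median of ninaB, r was 0.67. Of the other 8925 tested probe sets, 0.885% had as high an r with ninaB and 1.85% with ninaD. For ninaG, r was -0.26 with ninaB (permutation p = 0.399) and -0.47 with ninaD (permutation p = 0.126). Each arm had 5 arrays, too few for an r of its own. The test of gene pairs was not among the planned tests. Without centring, r with the 3′/5′ ratio was -0.51 for ninaB and -0.12 for ninaD. With the first principal component it was -0.19 for ninaB and 0.45 for ninaD. The part of array quality in the r of ninaB with ninaD was not tested.

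**Figure D3:**
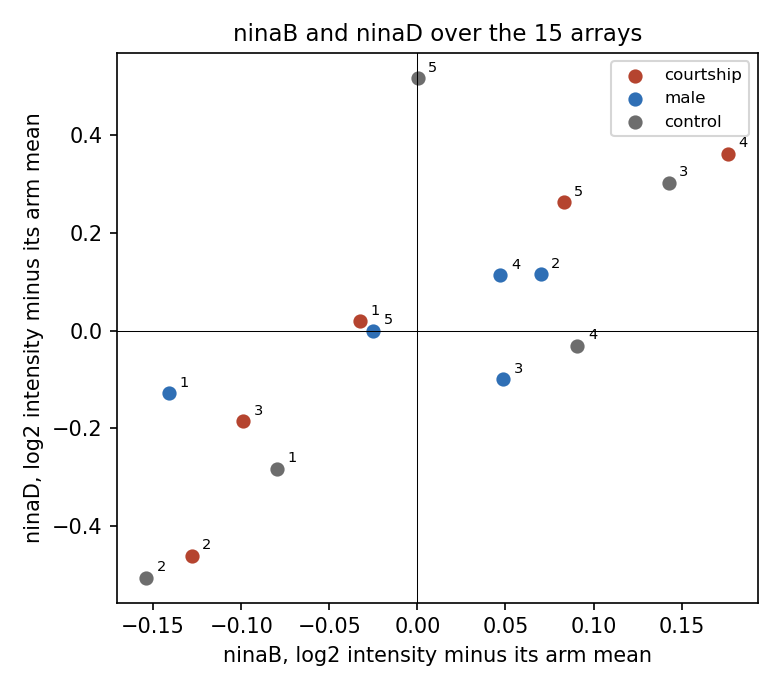
Each point is 1 of 15 arrays, placed by its log2 intensity of ninaB (x axis) and ninaD (y axis) minus the arm mean, coloured by arm. The points run from lower left to upper right (r = 0.77), with control array 5 high in ninaD near the arm mean of ninaB.

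The probe sets of other genes most like each chromophore gene were sought by the same arm-centred r, as a description over 15 arrays. With ninaB these were CG6287 (r = 0.93), Pfrx, a regulator of glycolysis (0.91), and Idh, an isocitrate dehydrogenase (0.89). With ninaD they were CG4716 (0.92), CG6567 (0.90) and Cyp309a2, a cytochrome P450 (0.90). With ninaG they were gpp, a histone methyltransferase (0.92), CG6923 (0.92) and Mp, a collagen (0.91). Male minus control was -0.63 for gpp and -0.44 for Mp, both called (limma adjusted p of 0.0307 and 0.0386), where 3.66% of all probe sets were. It was -0.66 for CG6923 and 0.71 for Cyp309a2, neither called (limma adjusted p = 0.0506 for both), and lay between 0.063 and 0.34 for the other 5, none called.

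Sample code letters, whose meaning the labels do not give, were shared by some arrays of different arms. For ninaD, male minus control was 0.75, 0.74 and 0.082 between arrays of letters A, F and H. Courtship minus control was 0.57, 0.31, -0.22 and 0.11 between arrays of letters A, C, D and H. Each of these letters marks at most 1 array per arm, and only A and H occur in all 3 arms, so these values have no error of their own. With the letter as a block, ninaD differed by 0.46 between male and control (limma adjusted p = 0.0982).

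A list of other opsin and retinoid genes showed no called change. Of 19 listed, 10 were named and tested, and none passed in any of the 3 comparisons. Only Rh7, santa-maria, pinta and rdhB among these are opsin or retinoid genes themselves. The rest were Culd, Crag, Cnx99A, Hsc70-3, Fatp and sun, so few retinoid genes were covered. The median difference of the 10 was 0.036 for courtship against control and -0.011 for male against control, beside 0.011 and 0.019 over all tested probe sets. The smallest p for male against control belonged to Culd, a membrane protein of rhodopsin traffic (difference -0.18, limma adjusted p = 0.151), and Crag, which acts in rhodopsin transport (-0.17, 0.340). Chosen after their values were seen, for their roles, santa-maria, a carotenoid receptor related to ninaD, differed by 0.070 (limma adjusted p = 0.471), the retinoid-binding gene pinta by -0.066 (0.638) and the retinol dehydrogenase gene rdhB by 0.066 (0.595). Rh7, an opsin outside the named 6, differed by 0.12 (0.409). Its second probe set lay under the detection filter, at a mean log2 of 2.37.

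Phototransduction genes act after the pigment absorbs light. Of 22 listed, 18 were tested, and 2 fell and 0 rose in male against control, where 3.66% of all probe sets were called. These were rdgA, a diacylglycerol kinase, at 9.0 ± 0.21 in the male arm and 9.60 ± 0.27 in controls (SD, n = 5 each; difference -0.60, limma adjusted p = 0.0386), and trp, a light-activated cation channel, at 13.94 ± 0.11 in the male arm and 14.28 ± 0.13 in controls (-0.34, adjusted p = 0.0485). Male minus control was negative for 17 of 18 and its median was -0.20, where 52.9% of all tested probe sets were positive. In courtship against control 17 of 18 were negative, with a median of -0.064 and no call, where 54.4% of all were positive. Both counts use the same control arrays. Of 16 tested genes of photoreceptor fate, mostly transcription factors but with the kinase genes sev and wts among them, 1 fell in male against control, ey, the fly Pax6, at 8.37 ± 0.28 in the male arm and 8.88 ± 0.15 in controls (-0.51, limma adjusted p = 0.0405). The median of these 16 was -0.15. The 3 calls changed when 1 array was left out, while all 3 genes kept an unadjusted limma p under 0.05 in 15 of 15 such fits. None of the 3 passed without courtship array 1, 3 or 4, male array 2 or 5, or control array 2, 3 or 4, fits in which 0 to 41 of all probe sets passed. Without male array 1, ey passed and rdgA and trp did not, and trpl, a second light-activated channel, was the 1 phototransduction gene called. Without control array 5, rdgA passed and trp and ey did not. Without courtship array 5 or male array 4, 4 phototransduction genes fell, and without courtship array 2 it was 5. Leaving out 1 array kept rdgA between -0.70 and -0.52, trp between -0.37 and -0.29 and ey between -0.58 and -0.40. By dChip PM and by dChip PM-MM, rdgA differed by -0.15 and was not called (limma adjusted p = 0.296 and 0.356). The call of trp was missed by MAS5 (-0.20, limma adjusted p = 0.0987) and by dChip PM-MM (-0.29, 0.0657). For ey the call was passed in each of the other processings.

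**Figure D4:**
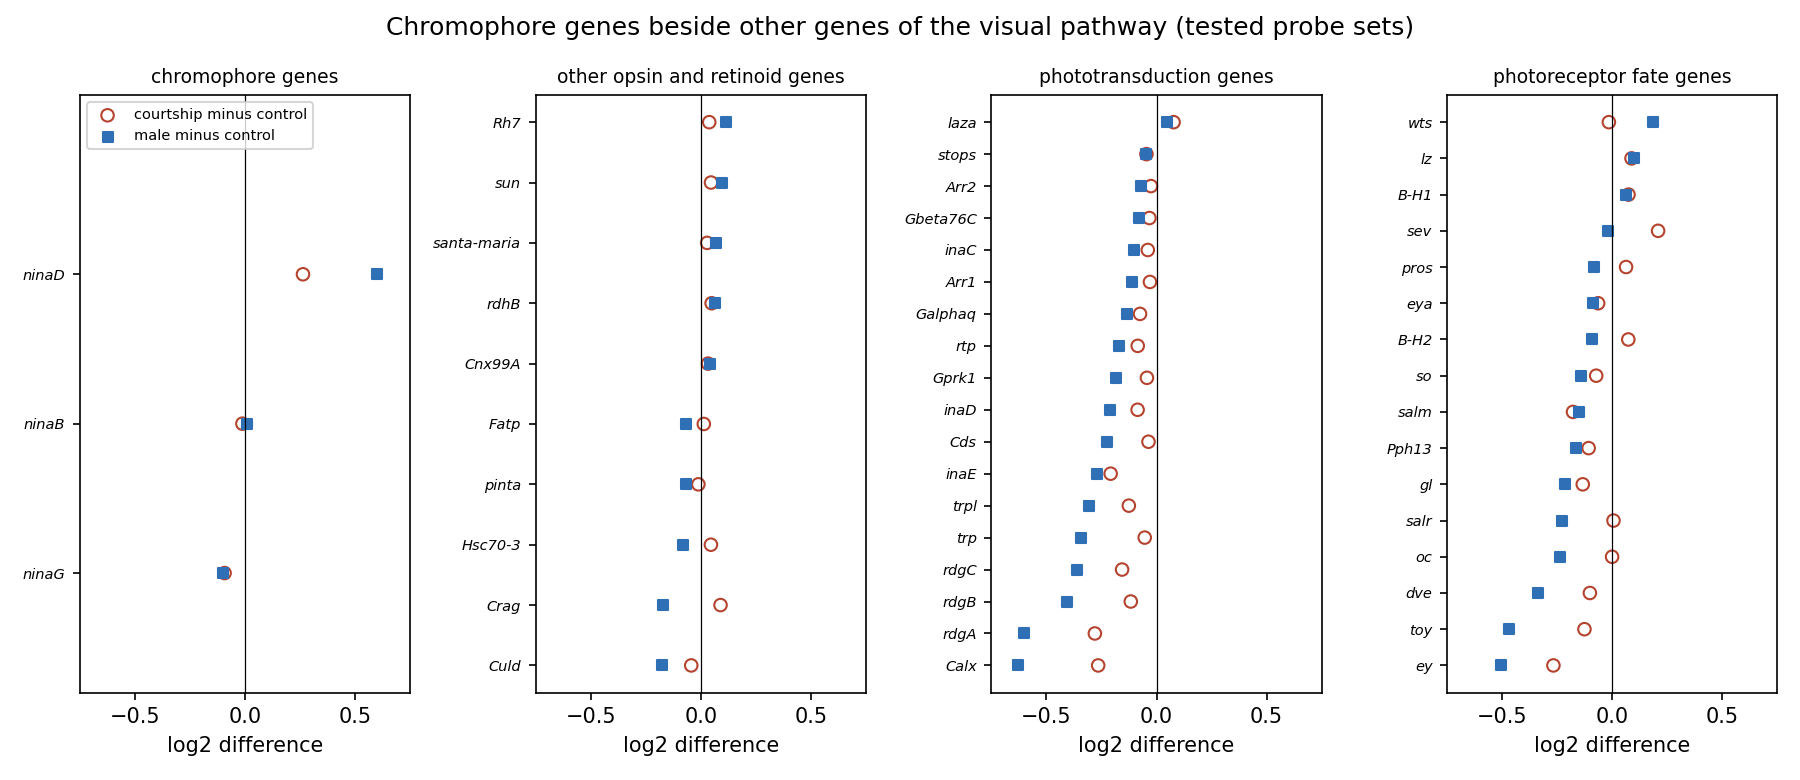
The plot shows the log2 difference from control of each tested gene, in courtship (circles) and male (squares), in 4 groups of visual genes. Phototransduction genes lie left of 0 for male minus control in 17 of 18 cases, and ninaD lies farthest right of all groups at 0.60.

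RNA quality and cell type markers were also compared between arms. The 3′/5′ log2 ratios of the male arm (2.50 to 3.99) and controls (2.66 to 3.54) overlapped, and no test of them was run. Without male arrays 1 and 5, 0 phototransduction genes and 0 of all probe sets passed for male against control, while ninaD differed by 0.64 (limma adjusted p = 0.157), and without control array 1 as well by 0.57 (0.162). Neither difference was called, and the part of RNA quality in the difference of ninaD was not tested. The linear intensities of the 8 photoreceptor markers were summed on each array and the sum taken to log2. Such a sum follows the brightest probe sets most, here Arr2 at a mean log2 of 15.47, and the other marker groups were summed likewise. Of the 8, trp, inaD and Arr2 are also in the phototransduction list, so the sum is not separate from the results of that list. The photoreceptor sum ranged over 16.33 to 16.45 in the male arm, 16.53 to 16.62 in controls and 16.44 to 16.62 in the courtship arm. In male against control, 34.1% of all probe sets had an unadjusted limma p under 0.05. Neuron markers ranged over 12.19 to 12.58 in the male arm, 12.51 to 12.96 in the courtship arm and 12.53 to 12.94 in controls. Muscle markers ranged over 13.55 to 13.98 in the male arm, 13.77 to 14.09 in the courtship arm and 13.91 to 14.08 in controls. The part of these markers in the results was not tested. Fat body markers ranged over 15.97 to 16.03 in the male arm, 15.95 to 16.07 in the courtship arm and 15.86 to 15.99 in controls. Taken singly, 3 of the 5 tested fat body markers were higher and 2 lower in male against control, with 0 called. Lsp2 differed by 0.76 (limma adjusted p = 0.0506) and fit by 0.46 (0.0862), and apolpp, FASN1 and Lpin by -0.091 to 0.021. Likewise 8 of 8 photoreceptor markers (1 called, trp), 5 of 5 neuron and 4 of 5 muscle markers were lower. Higher were 5 of 5 glia, 3 of 4 haemocyte and 2 of 4 pigment and cone cell markers, beside 52.9% of all tested probe sets. Pigment and cone cell markers ranged over 11.97 to 12.21, 11.98 to 12.09 and 11.91 to 12.11 in the male, courtship and control arms, and 1 of them, cn, lay under the filter. The brightest of them were santa-maria, at a mean log2 of 11.40, and pinta, at 9.46. Both are also in the opsin and retinoid list, so this sum says little about pigment and cone cells. Glia markers ranged over 13.74 to 14.24 in the male arm, 13.91 to 14.25 in the courtship arm and 13.88 to 14.15 in controls. Haemocyte markers ranged over 9.27 to 9.79 in the male arm, 9.22 to 9.87 in the courtship arm and 9.15 to 9.90 in controls, with NimC1, eater and He under the filter.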

How the data were processed

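Per the labels and the deposited table, 15 arrays were each summarised 5 ways by the authors, as intensity values on a linear scale: GeneSpring GC-RMA, R GC-RMA, dChip with PM-MM or with PM probes alone, and MAS5. GCOS 1.2 and GCRMA are the tools listed, per the submitters' processing notes. Intensities of the R GC-RMA columns were taken to log2 here. A floor of 1 was applied to 746 smaller dChip PM-MM values (40 were 0). For background correction and normalization the sources used here give only the method names.

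Array control probe sets (183) were left out, and probe sets with a mean log2 of at least 4 over all arrays were tested. One limma model (version 3.58.1, R 4.3.3) of the 3 arms over all 15 arrays gave the differences, with Benjamini-Hochberg adjustment over 8926 probe sets in each comparison and a threshold of 0.05. It had 12 residual and 2.60 prior degrees of freedom. Precision is limited by how many arrays there are. Of the 18769 probe sets, 13647 had 1 symbol, 402 several and 4720 none, by the platform annotation, and those with several were not named.

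Genes named are every chromophore gene, the 3 probe sets most like each, and from each list those past the threshold or, with none, the 2 with the smallest p. Named outside this rule, after their values were seen, are Rh7, santa-maria, pinta, rdhB and trpl. The same holds for Arr2, inaD, Cnx99A, Hsc70-3, Fatp, sun and the tested fat body markers. The genes and lists were chosen with earlier results of these data known. The search of promoters for motifs was not run. The fit was tested on simulated data. Alternatives were the other processings, filters, centring, blocks, a 3′/5′ covariate and leaving out arrays.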

Additional observations from a re-analysis of the deposited data

How the results depend on the processing

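For ninaD, male minus control stayed positive in 13 of 13 alternatives (0.36 to 0.65, limma adjusted p 0.0330 to 0.162). It passed in 3, so that 1 chromophore gene was called with array medians centred (0.65, adjusted p = 0.0448), with the replicate block (adjusted p = 0.0330) and with the 3′/5′ covariate (0.64, adjusted p = 0.0432). Leaving out 1 array gave 0.47 to 0.73, adjusted p 0.0422 to 0.137 and 0 to 1 genes called, with the call only without courtship array 2. Whether replicate numbers pair the arrays was not settled. Same-numbered deviations correlated at -0.29 to 0.47, most of them positive. Of the 10 arrays of each comparison, some correlated best with the array of their own number. They were 4 for courtship with control, 3 for male with control and 5 for courtship with male. With the replicate block, 1690 probe sets passed for male against control, against 327 without it. Other counts for that comparison were 613 by GeneSpring, 166 by MAS5, 64 by dChip PM-MM, 12 unfiltered, 8.0% of 7810 at a mean log2 of at least 6, 854 with medians centred, 980 with a code letter block, 498 with only those arms, 1009 with the covariate, and 0 to 1026 leaving out 1 array, with 0 without control array 2 and 1026 without courtship array 2. The causes were not tested.

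Phototransduction genes that fell numbered 4 by GeneSpring, 1 by MAS5, 0 by dChip PM-MM, 0 unfiltered, 4 at a mean log2 of at least 6, 8 with the replicate block, 5 with the covariate, 0 without male arrays 1 and 5 and 0 also without control array 1, and 0 to 5 leaving out 1 array. Photoreceptor fate genes that fell numbered 2 by dChip PM, 0 unfiltered, 2 with the code letter block, 0 with only those arms, 0 without male arrays 1 and 5, 0 also without control array 1, and 0 to 1 leaving out 1 array. With the covariate 1 gene of the opsin and retinoid list fell, Culd. For ninaB, male minus control reversed to -0.0029 by GeneSpring, -0.018 by dChip PM, -0.056 by dChip PM-MM and -0.074 with the code letter block, courtship minus male to 0.032 by dChip PM-MM and 0.068 with the code letter block, and courtship minus control to 0.027 with medians centred. For ninaG, courtship minus male reversed to -0.0092 with medians centred and to -0.037 without male arrays 1 and 5, with or without control array 1. Leaving out 1 array gave ninaB -0.056 to 0.024, -0.064 to 0.012 and -0.031 to 0.044 for courtship against control, courtship against male and male against control, and ninaG -0.031 to 0.044 for courtship against male. The r of ninaB with ninaD was 0.60 to 0.80 in 6 alternatives chosen after seeing the data, and 0.71 to 0.91 leaving out 1 array.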
